A study of Mus musculus with 14 samples.

Results

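The enzymes that make serine and move its carbon through folate were read from 9 genes, Phgdh, Psat1, Psph, Shmt1, Shmt2, Mthfd1, Mthfd2, Mthfd1l and Tyms. They were found by their gene name in the array design, which gave 14 of 55681 probes that are no control spots and 9 of 36161 gene names. The probe with the highest mean signal over all arrays stood for each gene. RNA was measured on 14 single-colour Agilent mouse arrays in 5 groups. Small intestine (n = 3) and colon (n = 3) were whole tissue labelled C57BL/6J. Adenomas (n = 3) and tissue adjacent to an adenoma (n = 2) were labelled APCmin/+, a strain that carries a germline mutation of Apc and grows many intestinal adenomas. The fifth group was CT26 (n = 3), a mouse colon carcinoma cell line derived from the BALB/c strain, so that strain, culture and transformation differ together between CT26 and colon and cannot be told apart. All tissue groups share the C57BL/6J background, and the labels give neither a treatment nor an age for any group. In the study's sample list every adenoma and adjacent piece came from 1 mouse and 1 colon sample stands under an APCmin/+ mouse, although the labels give C57BL/6J for all colon samples. The p-values below therefore measure the spread between these pieces, mice or cultures, which may be technical.

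Cells make serine from a glycolytic intermediate in a short pathway of dehydrogenase, aminotransferase and phosphatase steps. Serine hydroxymethyltransferases then split serine into glycine and a carbon unit carried by tetrahydrofolate, and this unit is used to build purines and thymidylate and to remethylate homocysteine. The folate reactions run in parallel in mitochondria and cytosol, with formate passing between the compartments. Genes of the serine pathway and of the mitochondrial folate pathway are known targets of the transcription factor Atf4, which is raised by amino acid shortage, and they are often high in dividing and transformed cells.

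Signals are given as scaled log2 signal, the log2 of the scanner's processed signal minus the 75th percentile of the same array, so that 0 stands for that percentile and an increase of 1 for a doubling of signal. An array had 46.8% to 58.2% of its probes well above background, and the brightest probe of all 9 genes was well above background and unsaturated on all 14 arrays. Colon replicate 3 stood apart from its group, since over all probes it correlated less with the remaining colon arrays (0.934 to 0.938) than with small intestine (0.951 to 0.969). Its 10 markers of small intestine enterocytes had a summed log2 level of 12.32, against 6.91 and 7.6 in the other colon arrays. The 10 colonocyte markers summed to 9.89 in it, against 9.19 and 9.34, with a median of 3.53 against 5.3 in both others. The 8 B cell markers summed to 5.47, against 2.59 and 2.96. Counts of called genes in comparisons with colon are therefore also given without colon replicate 3. The epithelial markers were well above background on every tissue array, whereas in CT26 the 8 epithelial markers had a summed log2 level of 4.93 to 5.78 against at least 10.17 elsewhere, and Epcam, Cdh1, Krt19, Vil1 and Elf3 were well above background on no CT26 array. In whole tissue, fewer cells of a type and less RNA per cell cannot be told apart.

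The array probes are 60-base stretches of the transcripts, placed by the array files in mouse genome build mm9, and their exon or UTR position was not analysed here. The first 30 bases of the probes behind the strongest and the divergent results are shown so that the measured transcripts can be identified. They are the 2 Phgdh probes (chr3:98117215-98117274 and chr3:98117303-98117361), the brighter Psat1 probe (chr19:15979622-15979681), both Shmt1 probes (chr11:60603099-60603158 and chr11:60620453-60620512), Shmt2 (chr10:126954811-126954870) and Mthfd2 (chr6:83256518-83256577), all on the minus strand:
Phgdh, brighter probe: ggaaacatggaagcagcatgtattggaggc
Phgdh, dimmer probe: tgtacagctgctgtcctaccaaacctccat
Psat1, brighter probe: tgttcatgtatcagtgttttcaatcgactg
Shmt1, brighter probe: ttgacatcccgaggacttttggaagaagac
Shmt1, dimmer probe: atgccaccctgtgggcttctcatgagaaga
Shmt2: cgatgcctggatttgatgaacgttgaggac
Mthfd2: ttctgtcgaaatggtttaaaatgtttgtat

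No run of 20 or more bases was shared between 12 of the 14 probes and any other probe of the array. The brighter Phgdh probe shared 35 bases with an unnamed probe placed on chromosome 14, and the dimmer one shared 21 bases with an unnamed probe on chromosome 7. Over the 14 arrays these pairs correlated at 1.0 and 0.999, so a contribution of a near copy to the Phgdh signal was not tested. The compartment partners did not resemble each other at the probes: the longest run shared by Shmt1 and Shmt2, by Mthfd1 and Mthfd1l or by Mthfd1 and Mthfd2 probes was 6 bases. The dimmer probes followed the brighter ones closely in Phgdh (r = 0.999 over 14 arrays), Psph (0.999), Psat1 (0.997) and Mthfd1l (0.997). In Shmt1 the 2 probes correlated at 0.707.

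The start regions with at least 2 forward copies of the letters CCAAT are shown, those of Phgdh, Psat1 and Mthfd2, as 250 bases upstream of a transcription start in RefSeq build GRCm38.p6 on the minus strand (chr3:98339970-98340219, chr19:15925060-15925309 and chr6:83317605-83317854). Capitals mark CCAAT or, for the opposite strand, ATTGG:
Phgdh: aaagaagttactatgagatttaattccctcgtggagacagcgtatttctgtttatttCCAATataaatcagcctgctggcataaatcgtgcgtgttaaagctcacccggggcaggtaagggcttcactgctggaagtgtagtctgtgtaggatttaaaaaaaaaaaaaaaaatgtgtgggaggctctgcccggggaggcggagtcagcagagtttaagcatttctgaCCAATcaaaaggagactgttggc
Psat1: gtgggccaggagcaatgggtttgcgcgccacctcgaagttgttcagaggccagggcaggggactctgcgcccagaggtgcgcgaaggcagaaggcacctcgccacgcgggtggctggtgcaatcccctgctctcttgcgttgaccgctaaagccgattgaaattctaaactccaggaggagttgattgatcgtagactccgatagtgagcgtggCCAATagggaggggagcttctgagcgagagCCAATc
Mthfd2: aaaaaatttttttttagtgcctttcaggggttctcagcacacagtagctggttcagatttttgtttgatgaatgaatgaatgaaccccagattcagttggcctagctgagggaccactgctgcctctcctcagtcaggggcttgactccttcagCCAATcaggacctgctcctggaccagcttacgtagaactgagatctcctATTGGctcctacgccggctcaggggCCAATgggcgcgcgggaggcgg

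These windows hold the letters and do not stand for all 9 genes. The RefSeq table matched the 9 genes with 10 windows, and the windows of Shmt2, Mthfd1l and Tyms and the other Psat1 window held no copy. CCAAT, searched on both strands, was present in windows of 6 genes (Phgdh, Psat1, Psph, Shmt1, Mthfd1 and Mthfd2), while 33.85% of all 32851 windows held it. CACGTG was found in the Tyms window and no other of the 10, against 6.02% of all windows. TGATGNAA, a form of the composite site that Atf4 binds with C/EBP proteins, was in none of the 10, against 3.45% of all windows. A match of letters is a description of the window and not a binding site.

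Across the 5 groups the 9 genes had nearly the same order. Small intestine had the lowest group mean for all 9 genes. CT26 had the highest mean for 8 of them, and adenoma the second highest mean for the same 8. Shmt1, the cytosolic serine hydroxymethyltransferase, had its highest mean in adenoma and CT26 in the middle of the order on its brighter probe, whereas on its dimmer probe CT26 was highest, as in the other 8 genes. Between adjacent tissue and colon the values overlapped in 7 of the 9 genes, all but Psph and Mthfd1, so their order is not set by the data.

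**Figure D1:**
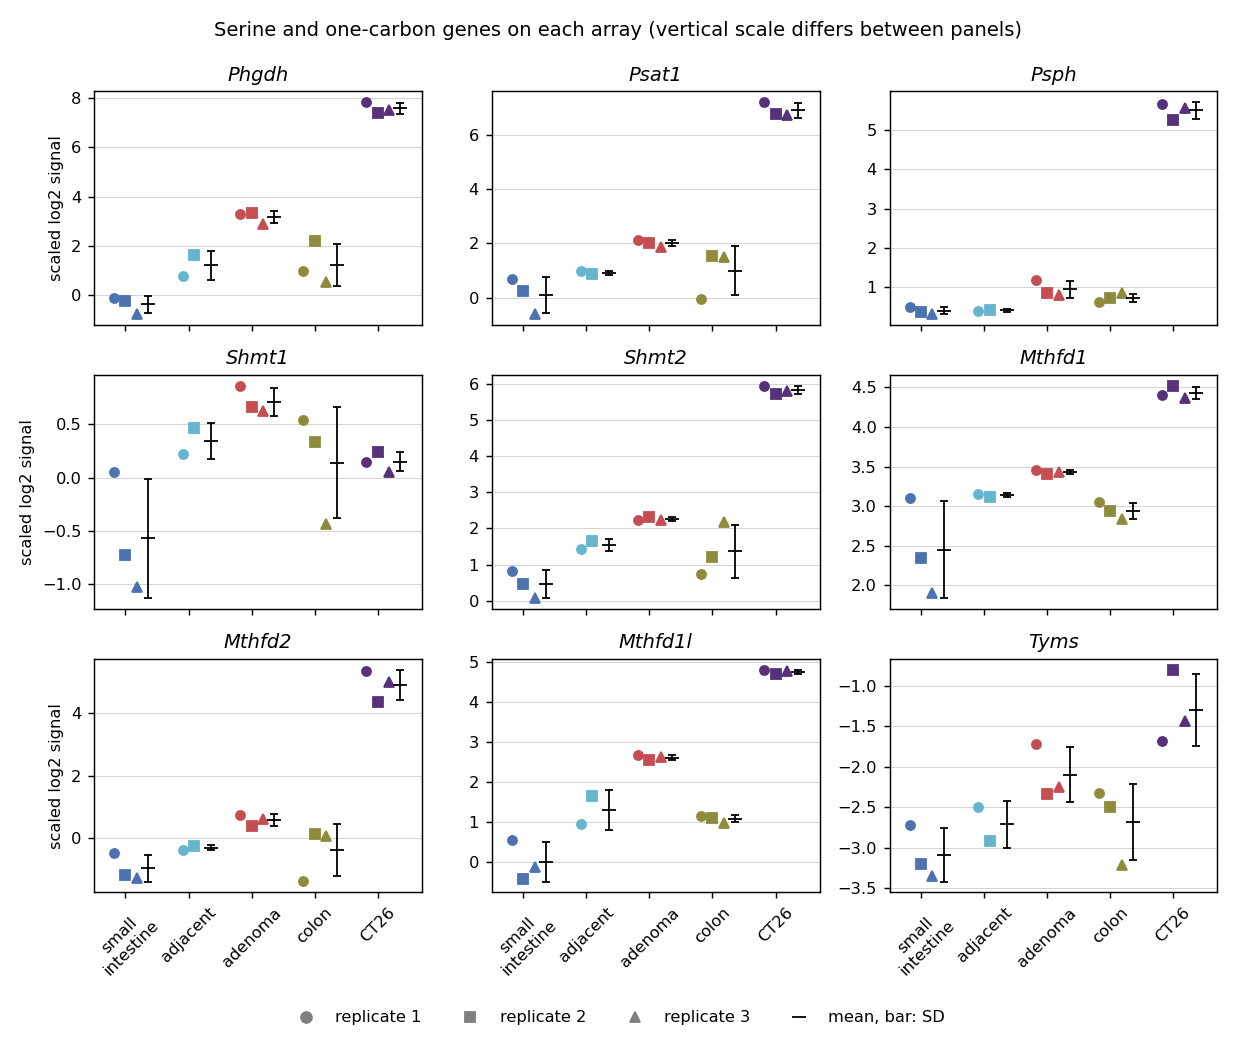
Scaled log2 signal (vertical axis, a scale of its own in each panel) of the 9 genes on each of the 14 arrays, by group, with replicate 1 as circles, 2 as squares and 3 as triangles. Horizontal ticks with bars are group means and SD. In 8 panels the 3 CT26 arrays lie above all tissue arrays, and in the Shmt1 panel, which shows the brighter probe, they lie between 0.05 and 0.24, below the 3 adenoma arrays.

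Phgdh, which encodes phosphoglycerate dehydrogenase, the entry step of serine synthesis, showed the largest rise of the 9 genes in adenoma and in CT26. Its scaled log2 signal was -0.09, -0.24 and -0.77 in small intestine, 0.8 and 1.63 in adjacent tissue, 3.31, 3.33 and 2.89 in adenoma, 0.99, 2.19 and 0.54 in colon and 7.84, 7.39 and 7.51 in CT26. Every adenoma array was above every normal and adjacent array, and every CT26 array was above the adenomas. Adenoma exceeded small intestine by 3.55 on the log2 scale (SE 0.236, 95% interval 2.99 to 4.10), or 11.7-fold, with a limma adjusted p of 0.000119. CT26 exceeded colon by 6.34 (SE 0.449, 5.30 to 7.39), or 81.1-fold, with an adjusted p of 2.65e-05. The dimmer probe gave 3.70 and 6.23 for the same differences.

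Psat1, phosphoserine aminotransferase, which forms phosphoserine with glutamate as amino donor, also rose in adenoma and in CT26. Its values were 0.69, 0.24 and -0.61 in small intestine, 0.98 and 0.87 in adjacent tissue, 2.13, 2.03 and 1.88 in adenoma, -0.03, 1.55 and 1.5 in colon and 7.21, 6.77 and 6.72 in CT26. The adenoma arrays lay above all normal and adjacent arrays, and colon replicate 1 lay far below the other colon arrays. The adenoma difference from small intestine was 1.91 (SE 0.325, 1.14 to 2.67), or 3.75-fold, with a limma adjusted p of 0.0033. The CT26 difference from colon was 5.90 (SE 0.469, 4.80 to 6.99), or 59.6-fold, with an adjusted p of 4.73e-05. The second probe, 4.11 dimmer on average, gave 1.76 (adjusted p = 0.00581) and 5.94.

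Psph, phosphoserine phosphatase, which releases free serine in the last step, separated CT26 from every tissue and differed little among tissues. It read 0.51, 0.39 and 0.33 in small intestine, 0.4 and 0.44 in adjacent tissue, 1.19, 0.85 and 0.81 in adenoma, 0.64, 0.73 and 0.85 in colon and 5.67, 5.26 and 5.56 in CT26. Tissue arrays spanned 0.33 to 1.19, with small intestine and adjacent tissue overlapping and with colon overlapping adenoma. CT26 exceeded colon by 4.76 (SE 0.273, 4.12 to 5.39), or 27-fold, with a limma adjusted p of 9.31e-06. Adenoma minus small intestine was 0.54 (0.13 to 0.95, adjusted p = 0.0348), under the fold threshold of 1.2.

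Shmt1, which runs the serine to glycine reaction in the cytosol, gave 0.05, -0.73 and -1.03 in small intestine, 0.22 and 0.46 in adjacent tissue, 0.86, 0.66 and 0.62 in adenoma, 0.54, 0.33 and -0.44 in colon and 0.15, 0.24 and 0.05 in CT26. These values are from the brighter probe, on which the adenoma arrays were the highest of all 14 and the CT26 arrays fell inside the range of colon. The dimmer probe, also well above background on all 14 arrays, read -1.94, -2.29 and -2.3 in small intestine, -1.84 and -1.76 in adjacent tissue, -1.56, -1.68 and -1.87 in adenoma, -1.83, -1.79 and -1.89 in colon and -1.38, -1.57 and -1.59 in CT26. On it every CT26 array lay above every colon array and CT26 overlapped adenoma, so the place of CT26 in the order differs between the 2 probes. Adenoma exceeded small intestine by 1.28 (SE 0.287, 0.61 to 1.96), or 2.43-fold, with a limma adjusted p of 0.00948 that only just met the threshold. The dimmer Shmt1 probe gave 0.47 for this difference (adjusted p = 0.0622), so the call rests on the brighter probe. It was also lost without small intestine replicate 3 (1.05, adjusted p = 0.0216). CT26 minus colon was 0.01 with an interval of -0.78 to 0.79 (adjusted p = 0.989), which leaves room for a difference of up to 0.79. Without colon replicate 3 it was -0.28 (adjusted p = 0.409). The dimmer probe gave 0.32 for CT26 minus colon (adjusted p = 0.335).

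Shmt2, the mitochondrial enzyme of the same reaction, rose in adenoma and in CT26. Its values were 0.83, 0.47 and 0.08 in small intestine, 1.42 and 1.66 in adjacent tissue, 2.23, 2.31 and 2.23 in adenoma, 0.74, 1.2 and 2.17 in colon and 5.93, 5.7 and 5.81 in CT26. Colon was spread widely, with replicate 3 close to the adenomas. The adenoma difference from small intestine was 1.79 (SE 0.217, 1.28 to 2.31), or 3.47-fold, with a limma adjusted p of 0.000839. CT26 was 4.45 above colon (SE 0.4, 3.52 to 5.38), or 21.8-fold, with an adjusted p of 8.74e-05.

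Mthfd2, a mitochondrial dehydrogenase and cyclohydrolase that oxidises the carbon unit delivered by Shmt2, is known for high levels in embryonic and transformed cells and low levels in most adult tissue. It measured -0.46, -1.15 and -1.25 in small intestine, -0.36 and -0.23 in adjacent tissue, 0.74, 0.39 and 0.63 in adenoma, -1.34, 0.13 and 0.07 in colon and 5.33, 4.36 and 4.97 in CT26. The adenoma arrays were higher than all normal and adjacent arrays by a small gap, and the CT26 arrays by a wide one. Adenoma exceeded small intestine by 1.54 (SE 0.247, 0.96 to 2.12), or 2.91-fold, with a limma adjusted p of 0.00258, and CT26 exceeded colon by 5.27 (SE 0.478, 4.16 to 6.38), or 38.6-fold, with an adjusted p of 9.04e-05.

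Mthfd1l, the mitochondrial formate-tetrahydrofolate ligase that releases formate to the cytosol, rose in both tumour comparisons with closely spaced adenoma and CT26 arrays. It read 0.54, -0.42 and -0.13 in small intestine, 0.95 and 1.64 in adjacent tissue, 2.66, 2.55 and 2.61 in adenoma, 1.16, 1.09 and 0.98 in colon and 4.79, 4.69 and 4.76 in CT26. No tissue group other than adjacent tissue and colon overlapped. The adenoma difference from small intestine was 2.61 (SE 0.258), or 6.1-fold, with a limma adjusted p of 0.000396. The CT26 difference from colon was 3.67 (SE 0.257, 3.07 to 4.27), or 12.7-fold, with an adjusted p of 2.54e-05.

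Mthfd1, the cytosolic enzyme that combines the dehydrogenase, cyclohydrolase and ligase activities, spanned less of the scale than the mitochondrial enzymes. Its values were 3.1, 2.35 and 1.9 in small intestine, 3.15 and 3.12 in adjacent tissue, 3.46, 3.4 and 3.43 in adenoma, 3.05, 2.94 and 2.84 in colon and 4.4, 4.52 and 4.36 in CT26. CT26 exceeded colon by 1.48 (SE 0.26, 0.88 to 2.09), or 2.79-fold, with a limma adjusted p of 0.00235, but quantile normalization brought this difference to 0.98, under the fold threshold. The call was also lost, at adjusted p-values of 0.0101 to 0.0132, without colon replicate 1, colon replicate 2, CT26 replicate 2 or CT26 replicate 3. Adenoma minus small intestine was 0.98 (adjusted p = 0.0297) and was not called.

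Tyms, thymidylate synthase, which uses the folate-bound carbon to make the thymidine nucleotide for DNA, was read from a dim probe. It gave -2.72, -3.2 and -3.35 in small intestine, -2.5 and -2.92 in adjacent tissue, -1.72, -2.34 and -2.25 in adenoma, -2.32, -2.5 and -3.21 in colon and -1.68, -0.8 and -1.43 in CT26. The tissue groups overlapped, except that adenoma lay above small intestine and adjacent tissue, and CT26 lay above all of them by a small gap. Neither the adenoma difference from small intestine of 0.99 (limma adjusted p = 0.0146) nor the CT26 difference from colon of 1.37 (adjusted p = 0.0166) passed the test. The CT26 difference was called with quantile normalization (1.66, limma adjusted p = 0.00934) and with all 5 groups in 1 fit (adjusted p = 0.00204).

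In adenoma against small intestine, 6 of the 9 genes were called higher and none lower, where a call needed a log2 fold change of at least 1.2 and a limma adjusted p of at most 0.01. Of all 22088 genes tested, 11.3% were called higher and 22.4% were called in either direction, 4951 genes, against 3218 genes without adenoma replicate 2. All 9 genes had every adenoma array above every small intestine array, against 27.8% of all genes tested, and their median log2 fold change was 1.54 against -0.15 for all genes. The positive difference held within each of the array slides, where it ranged over the 9 genes from 0.58 to 3.53 on slide 1 and from 0.46 to 3.57 on slide 2. Small intestine replicate 1 was the highest of its group for 9 of 9 genes. The genes called depend on which arrays are kept: without small intestine replicate 2, or without any 1 adenoma array, 3 genes were called (Phgdh, Shmt2 and Mthfd1l), while Psat1, Shmt1 and Mthfd2 kept adjusted p-values of 0.0103 to 0.0377, and without small intestine replicate 1 the count was 7.

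Adenomas were also set against adjacent tissue of the same mouse. None of the 9 genes was called by limma, against 4.18% of 22192 genes (2.4% higher and 1.78% lower). At an adjusted p of 0.05 with no fold threshold, 5 of the 9 passed, as did 4496 of the 22192 genes. All 9 genes had every adenoma array above both adjacent arrays, which 28.4% of all genes tested also had. Phgdh differed by 1.97 (SE 0.295, 1.24 to 2.69, limma adjusted p = 0.0122) and Mthfd1l by 1.31 (SE 0.233, 0.73 to 1.88, adjusted p = 0.019). Psat1 differed by 1.09 (adjusted p = 0.011) and Mthfd2 by 0.88 (adjusted p = 0.0239). With adjacent replicate 2 left out, Phgdh differed by 2.38 and Mthfd1l by 1.65. That leaves 1 adjacent array and no spread within this group, so no call is given. The mean of adjacent tissue lay between those of small intestine and adenoma for all 9 genes. Against small intestine, however, limma called none of the 9, and 0.00925% of all 21632 genes. The adjacent arrays were above all small intestine arrays for 7 of the 9 genes, against 21.9% of all genes. The differences ranged from 0.01 for Psph to 1.58 for Phgdh (limma adjusted p = 0.0653).

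In CT26 against colon, 7 of the 9 genes were called higher and none lower. Of the 21683 genes tested, 37.2% were called, 21% higher and 16.2% lower, which is 8066 genes, against 5352 without CT26 replicate 3. The 9 genes' median log2 fold change was 4.45, against 0.32 for all genes. For 8 of the 9 genes every CT26 array was above every colon array, against 39.3% of all genes. Leaving out colon replicate 3 also gave 7 genes, with 39.5% of 23174 genes called in either direction and median differences of 5.99 for the serine synthesis genes and 3.62 for the folate genes, against 5.90 and 3.67 with it. The 3 serine synthesis genes differed by 4.76 to 6.34, the 3 mitochondrial folate genes by 3.67 to 5.27, and the cytosolic Shmt1 (brighter probe) and Mthfd1 by 0.01 and 1.48. Smooth muscle markers were lower in CT26 for 8 of 8 genes, at a summed log2 level of -0.71 to 0.39 against 9.02 to 9.46 in colon, and the part of such cells in the difference was not tested.

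**Figure D2:**
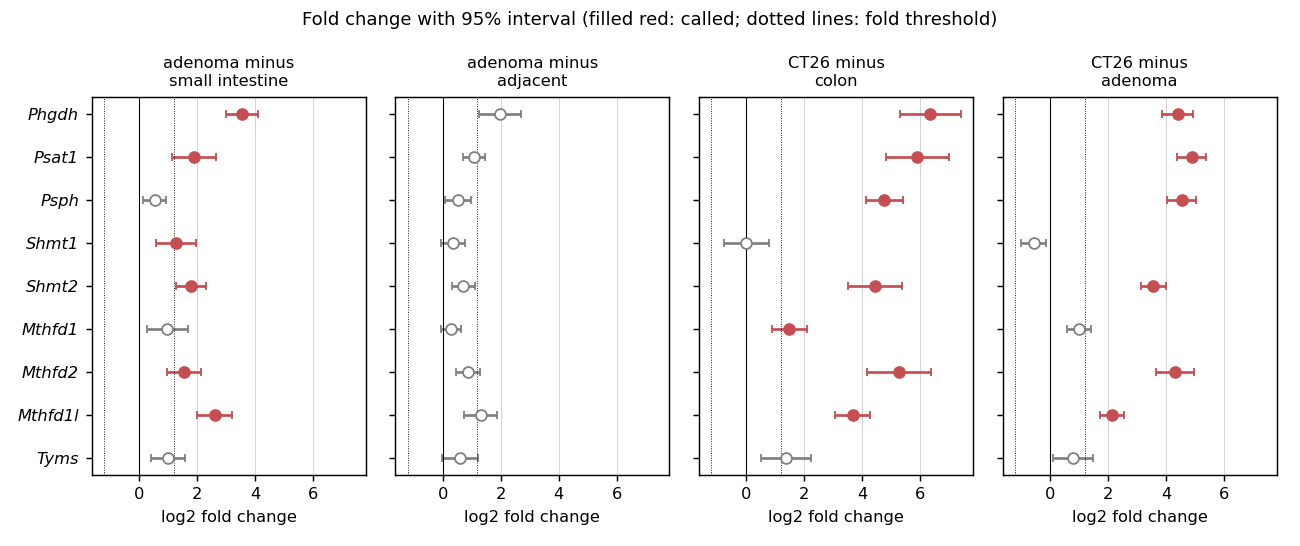
Log2 fold change (horizontal axis) of each gene in 4 comparisons, with 95% intervals. Filled red points passed the fold and adjusted p thresholds, open points did not, and dotted lines mark a fold change of 1.2 in either direction. The interval of Shmt1 in CT26 against colon spans 0, whereas Phgdh reaches 6.34 there and 3.55 in adenoma against small intestine.

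CT26 differed from colon by more than adenoma differed from small intestine for 5 of the 9 genes, tested as a difference of differences over the arrays of these groups, which share no array between the comparisons. Of 23439 genes, 30.8% were called by this test, 15.5% with a higher and 15.3% with a lower value in the CT26 comparison. The excess was 2.80 for Phgdh (SE 0.537, 1.62 to 3.98, limma adjusted p = 0.00154), 3.99 for Psat1, 4.22 for Psph (SE 0.288, adjusted p = 6.86e-07), 2.65 for Shmt2 and 3.73 for Mthfd2. The other 4 genes did not pass: Mthfd1l had an excess of 1.06 (0.30 to 1.81, adjusted p = 0.0266), Mthfd1 of 0.50, Tyms of 0.38 and Shmt1 of -1.28 (-2.26 to -0.29, adjusted p = 0.0376). Without colon replicate 3 the Shmt1 difference was -1.57 with an adjusted p of 0.00749, on the called side, and on the dimmer Shmt1 probe it was -0.15 (adjusted p = 0.684) with all arrays. Psph thus had the largest excess of the 9 and, in adenoma, a difference of 0.54 that was not called.

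Set directly against adenoma, CT26 was called higher for 6 of the 9 genes and lower for none. Of 22820 genes, 41.9% were called in either direction and 21.9% higher. The CT26 and adenoma arrays did not overlap for any of the 9 genes, with CT26 above for 8, against 44% of all genes with CT26 above. This comparison shares its arrays with those above. Psat1 differed by 4.89, Psph by 4.55, Phgdh by 4.40, Mthfd2 by 4.30, Shmt2 by 3.56 and Mthfd1l by 2.14, with limma adjusted p-values from 6.72e-07 to 2.48e-05. Mthfd1 differed by 0.996 (adjusted p = 0.0018), under the fold threshold. Shmt1 had a negative value on its brighter probe, -0.56 (-0.998 to -0.127, adjusted p = 0.0307), and a positive one on its dimmer probe, 0.19 (adjusted p = 0.422). In colon against small intestine limma called none of the 9 genes, and 0.00969% of all 20633 genes, 0.00485% in each direction. Colon was above small intestine on every array for Phgdh, Psph and Mthfd1l, 3 of the 9 genes against 12% of all genes. Without colon replicate 3 none of the 9 was called either, while the share of all genes called was 7.24%.

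The mitochondrial enzymes were compared with their cytosolic partners within each array. Because each probe binds with its own strength, the difference between 2 probes has no meaningful zero, and only its shift between groups is read. Shmt2 minus Shmt1 was 0.78, 1.2 and 1.11 in small intestine, 1.37, 1.66 and 1.61 in adenoma, 0.2, 0.87 and 2.61 in colon and 5.78, 5.46 and 5.76 in CT26. It was higher in CT26 than in colon by 4.44 and in adenoma than in small intestine by 0.51, with no overlap in either case. The CT26 shift was 5.13 without colon replicate 3. These values use the brighter Shmt1 probe, which rose by 1.28 in adenoma against small intestine, where the dimmer one rose by 0.47. For CT26 against colon the brighter probe gave 0.01 and the dimmer one 0.32. The size of the Shmt2 minus Shmt1 shift, mainly in adenoma, therefore depends on the Shmt1 probe used. Mthfd1l minus Mthfd1 shifted by 2.19 in CT26 against colon and by 1.63 in adenoma against small intestine. Its adenoma arrays, at -0.8, -0.85 and -0.82, lay above the small intestine arrays at -2.56, -2.77 and -2.03. Mthfd2 minus Mthfd1 shifted by 3.79 and 0.56 in the same comparisons. The CT26 shifts of both pairs were 2.19 and 4.06 without colon replicate 3. The 2 last pairs share Mthfd1, and the comparisons share arrays, so the shifts are not independent. Of 12 shifts computed, over 4 enzyme pairs and 3 comparisons, each had an exact two-sided permutation p of 0.1, the smallest that 3 arrays against 3 allow, also after Benjamini-Hochberg adjustment.

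**Figure D3:**
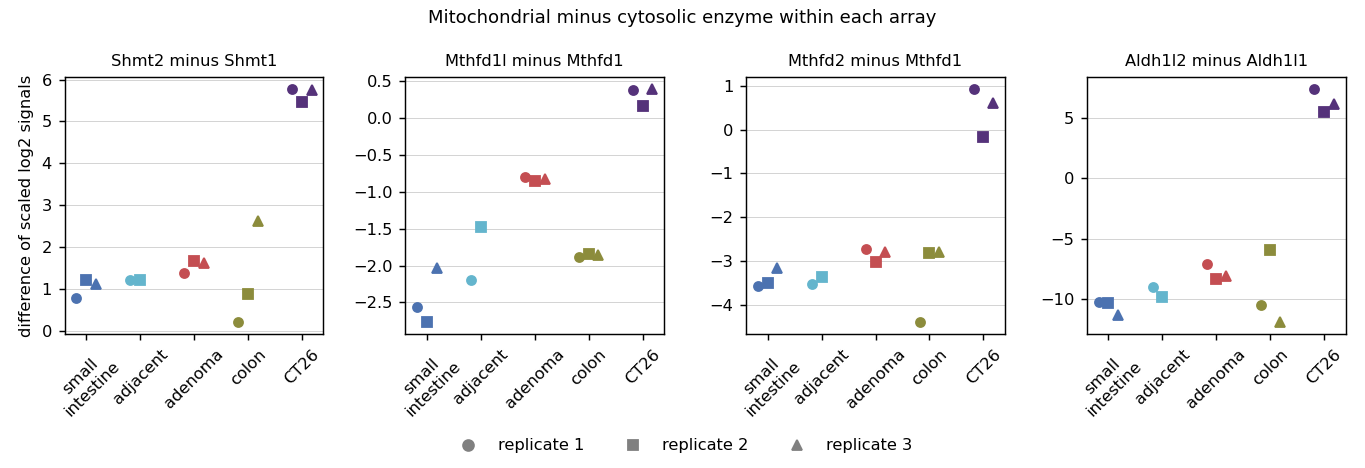
Scaled log2 signal of the mitochondrial enzyme minus that of its cytosolic partner (vertical axis, a scale of its own in each panel) on each array, by group and replicate. The CT26 arrays lie above all tissue arrays in all 4 panels, and the adenoma arrays lie above the small intestine arrays. Aldh1l2 was well above background on 1 of 3 arrays in small intestine and in colon, so its panel holds mostly background there.

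The fourth pair lies outside the 9 genes. Aldh1l1 and Aldh1l2 encode the cytosolic and mitochondrial formyltetrahydrofolate dehydrogenases, which oxidise the carbon unit to carbon dioxide. Aldh1l1 fell by 8.50 in CT26 against colon (limma adjusted p = 2.67e-05) and by 1.65 in adenoma against small intestine (adjusted p = 0.000499). Aldh1l2 rose by 7.34 in CT26 against colon (SE 0.899, adjusted p = 0.000407), although it was well above background on 1 of the 3 colon arrays. As it was also well above background on only 1 of the 3 small intestine arrays, no size is given for the shift of this pair.

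Among themselves, the genes other than Shmt1, which is read here from its brighter probe, followed one pattern. Pearson correlations over the 14 arrays, given as a description because the arrays share groups and the CT26 arrays lie far from the rest, ranged from 0.802 to 0.995 in the 28 pairs without Shmt1 and from 0.073 to 0.543 in the 8 pairs with it. Over the 11 tissue arrays alone, Shmt1 correlated with the others at 0.609 to 0.935, within the range of the other pairs (0.542 to 0.969). Of 14322 genes compared, the named genes closest to Phgdh over 14 arrays were Gm8096 (r = 0.999), listed by RefSeq as a transcribed pseudogene, Gpc1 (0.994), Chpf, Trip6 and Slc39a6. The Gm8096 probe shared at most 12 bases in a row with the brighter Phgdh probe, and no run of 20 or more with the dimmer one. Closest to Mthfd2 were Nmt2 (0.993), Tpst2, Srsf7, Bdnf and Asns (0.987). Asns encodes asparagine synthetase, a classic Atf4 target.

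Genes that draw on or feed the same carbon were counted in lists. Of all genes tested, 11.3% were called higher and 11.1% lower in adenoma against small intestine. In CT26 against colon these shares were 21% and 16.2%. Purine synthesis, which consumes formyl groups from folate, had 7 of 13 genes higher in adenoma than in small intestine and 11 of 13 higher in CT26 than in colon, with none lower and medians of 1.59 and 2.47. Adssl1, an adenylosuccinate synthetase, rose by 4.23 and 3.78, Pfas by 1.98 and 3.42, and in adenoma Ppat, the committed amidotransferase step, rose by 2.36 and Paics by 2.27. Thymidine and deoxynucleotide synthesis had 6 of 9 genes higher in each of these comparisons, none lower, with Dctd at 2.55 and 3.67 and Rrm2, a ribonucleotide reductase subunit, at 2.38 and 2.83. Of the 3 arrays of each normal tissue, Dctd rose over background on 1 in small intestine and on 2 in colon. Cell division genes had 8 of 10 higher in each comparison, with Plk1 at 2.27 and Cdk1 at 2.22 in adenoma and Aurka at 3.02 and Bub1 at 3.01 in CT26. Their summed log2 level was 5.61 to 6.51 in small intestine, 6.55 to 6.73 in adjacent tissue, 7.35 to 7.49 in adenoma, 6.57 to 6.76 in colon and 8.32 to 8.73 in CT26, and its part in their levels was not tested. Without colon replicate 3 the CT26 counts were 12 of 13, 7 of 9 and 9 of 10.

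The Atf4 and amino acid response list separated CT26 from adenoma. In CT26 against colon 10 of 11 genes were higher and none lower, against 21% and 16.2% of all genes, with a median of 3.91. Trib3 rose by 6.93, Chac1 by 6.23 and Ddit3 by 4.69, and Slc7a11, the cystine transporter, was at least 11.6-fold higher against colon arrays that were not well above background, where a lower bound takes the dimmest signals well above background in place of the colon values. The colon values of Trib3 (SD 2.81) and Chac1 (SD 1.82) were widely spread. Without colon replicate 3 the count was 9 of 11. In CT26 against adenoma 10 of 11 were higher, against 21.9% of all genes, with Chac1 at 7.29, Ddit3 at 5.65, Trib3 at 5.53 and Atf5 at 4.85. In adenoma against small intestine 2 of 10 were higher, Ddit4 (2.02) and Asns (1.65), and Ddit3 was lower (-2.37). Of all genes tested there, 11.3% were higher and 11.1% lower, which is near the shares in this list. The list median was 0.05 against -0.15 for all genes. Asns was also called in adenoma against adjacent tissue (1.26, limma adjusted p = 0.00687). None of the 9 genes was called there, although Phgdh (1.97, adjusted p = 0.0122) and Mthfd1l (1.31, adjusted p = 0.019) differed by more than Asns.

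**Figure D4:**
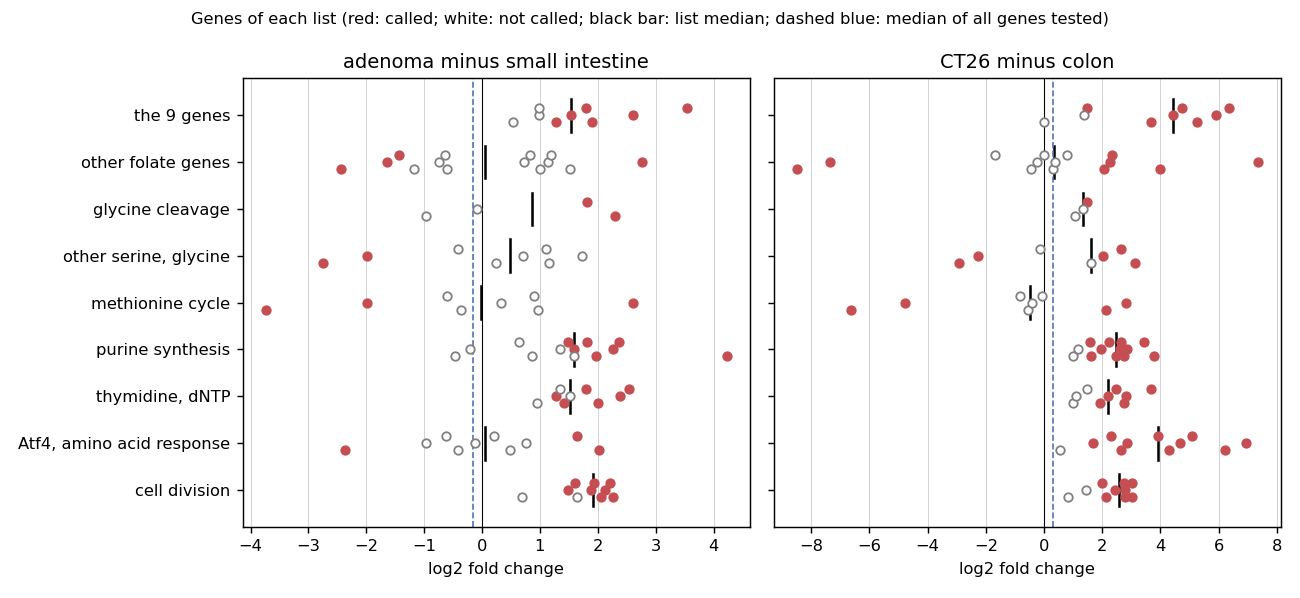
Log2 fold change (horizontal axis) of each tested gene by list, for adenoma against small intestine and CT26 against colon. Red points were called and white points were not, black bars are list medians, and the dashed line is the median of all genes tested. The Atf4 list median is 0.05 in the left panel and 3.91 in the right, and the median of the 9 genes is 1.54 and 4.45.

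Other folate genes did not move as a group. In adenoma against small intestine 1 of 14 was higher, Ggh (2.77), which trims folate polyglutamates, and 3 were lower, among them the folate receptor Folr1 (-2.43) and the mitochondrial serine carrier Sfxn1 (-1.44). In CT26 against colon 5 of 14 were higher and 2 lower, and without colon replicate 3 these counts were 6 and 2. Ggh was at -7.37, with widely spread colon values (SD 3.07). Of all genes tested, 11.3% were higher and 11.1% lower in the adenoma comparison, and 21% and 16.2% in the CT26 comparison. The glycine cleavage system had 2 of 4 genes higher in adenoma, Gldc (1.82) and Amt, at least 2.02-fold higher against small intestine arrays that were not well above background, and 1 of 3 higher in CT26 against colon, Gcsh (1.48), with or without colon replicate 3. Of the other serine and glycine genes, Glyctk (-2.74) and Srr (-1.99) were lower in adenoma against small intestine. In CT26 against colon 3 of 7 were higher and 2 lower (4 and 2 without colon replicate 3), with the glycine transporter Slc6a9 at 3.14, the neutral amino acid transporter Slc1a5 at 2.63 and the serine dehydratase-like Sdsl at -2.93.

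The methionine cycle and transsulfuration list, the route that takes serine into cysteine, went in both directions. Cbs, cystathionine beta-synthase, rose by 2.61 in adenoma against small intestine (limma adjusted p = 0.000156) and fell by 6.64 in CT26 against colon (adjusted p = 0.0014). The colon values of Cbs were widely spread (SD 2.39). Cth, the enzyme after it, fell by 1.99 and by 4.77 in these comparisons. Its CT26 values were widely spread (SD 2.26), and 2 of the 3 CT26 arrays had it well above background. Mtr, the methionine synthase that takes the methyl group from folate, rose by 2.81 in CT26, and its reductase Mtrr was at least 2.99-fold higher. The list had 2 of 8 genes higher and 2 lower in CT26 than in colon, or 2 and 3 without colon replicate 3. Of all genes tested, 21% were higher and 16.2% lower in this comparison with all arrays. Bhmt, which remethylates homocysteine with betaine instead, was at least 5.79-fold lower in adenoma than in small intestine. In adenoma against adjacent tissue the called genes of these lists, beside Asns, were Ggh (2.31), Glyctk (-1.43), Bhmt (at least 2.54-fold lower), Adssl1 (2.59), Rrm2 (1.39), Mcm5 (1.27) and Plk1 (1.26).

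Other cell types shifted with the adenoma comparison too. Of the small intestine enterocyte markers, 6 of 10 were lower in adenoma than in small intestine, with a summed log2 level of 8.62 to 9.35 against 11.64 to 12.13, and 10.94 to 11.26 in adjacent tissue. Of the T cell markers 4 of 7 were lower, of the fibroblast markers 3 of 8 higher, of the smooth muscle markers 1 of 8 lower, and none of 3 B cell markers tested was called. Of the 10 colonocyte markers 2 were higher and 4 lower, and of the 8 epithelial markers 1 was higher and 2 lower. Of all genes tested, 11.3% were called higher and 11.1% lower in this comparison. Of the 8 myeloid markers 3 were higher and 2 lower, with the neutrophil gene S100a9 at 5.92 and Itgam at -3.09, and S100a8, which was well above background on no small intestine array, at least 12.1-fold higher. Of the 8, 5 were well above background on every small intestine array, so the S100a9 size may rest partly on values near background. Against adjacent tissue, S100a9 (3.36) and S100a8 (3.93, well above background on 1 of the 2 adjacent arrays) were the 2 of 8 myeloid markers called, both higher in adenoma. The part of these cell types in the levels of the 9 genes was not tested.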

How the data were processed

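Labelled RNA of 14 samples was hybridised to single-colour SurePrint G3 mouse arrays, 1 array per sample. The deposited scanner files of the authors hold spot intensity, already background-subtracted and spatially detrended by Agilent Feature Extraction and not normalized between arrays. The authors' value table holds log2 values with column medians of 6.79 to 6.83, uncentred and correlated with the scanner's log2 intensity at 0.9553 to 0.9816 per array. Its normalization is not given in the sources used here, and it served as an alternative.

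Here log2 of the processed intensity was taken minus each array's 75th percentile, and a probe was tested where all arrays of 1 or both groups had it well above background. Each pair of groups was fitted on its own arrays by lmFit and eBayes (limma 3.58.1, R 4.3.3), with Benjamini-Hochberg adjustment over all probes tested. Calls used the thresholds of the study's methods, a log2 fold change of 1.2 or more in either direction with an adjusted p up to 0.01. The probe brightest on average over all arrays stood for its gene. Difference of differences was a limma contrast, and compartment shifts were tested by exact permutation. The fit was tested on simulated data. The number of arrays limits the precision.

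The members, the lists and the tests were chosen with earlier results of these data known, and the colonocyte list holds B3galt5, Saa1, Mep1a and Tmigd1, which earlier results had named. The text names the 9 members in every comparison and, of other lists, up to 4 called genes per list and comparison with the largest fold change, except 1 gene that is not reported here. Alternatives covered the normalization, the background correction, the filter on dim probes, the thresholds, the slide and replicate number as blocks, the mean over probes, and each array left out. Probe coordinates are those of the array files, promoter windows are from RefSeq, and motifs were counted in the 250 bases upstream of each start.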

Additional observations from a re-analysis of the deposited data

Results flagged for a closer look

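The CT26 difference from colon was larger than the adenoma difference from small intestine for 5 genes, by a limma contrast of both differences. For Phgdh the log2 differences were 6.34 and 3.55, and the contrast was 2.80 (SE 0.537, adjusted p = 0.00154). Psat1 had 5.90 and 1.91, with a contrast of 3.99 (SE 0.613, adjusted p = 0.000356). Psph had 4.76 and 0.54, with a contrast of 4.22 (SE 0.288, adjusted p = 6.86e-07). Shmt2 had 4.45 and 1.79, with a contrast of 2.65 (SE 0.47, adjusted p = 0.000919). Mthfd2 had 5.27 and 1.54, with a contrast of 3.73 (SE 0.575, adjusted p = 0.000363). The Phgdh contrast was 2.13 with quantile normalization, at an adjusted p of 0.0109, and no other of the 5 was lost under any alternative run.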

How the results depend on the processing

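No difference of a called gene changed direction under any alternative run. In adenoma against small intestine, 6 genes were called, and leaving out 1 array at a time gave 3 to 7. In adenoma against adjacent tissue, none was called, and 2 were with an intensity trend in the variance (Phgdh and Mthfd1l). At an adjusted p of 0.05 the count was 2, and 5 with no fold threshold as well. Over all genes these settings gave 2135 and 4496 genes, against 927 in the main fit. None of the 9 genes was called with any 1 adenoma array left out. Leaving out an adjacent array leaves 1 in that group, so no count is given for it. The Shmt1 call in adenoma against small intestine was lost with no filter on dim probes (adjusted p = 0.0259), with the slide as a block (0.019), with the replicate block (0.0107) and with the mean of both probes (0.88, adjusted p = 0.0156). The Mthfd1 call in CT26 against colon was lost with the authors' table (1.04), with normexp and quantile normalization (0.99), with quantile normalization (0.98), with no filter (adjusted p = 0.0118) and without any 1 of colon replicates 1 and 2 and CT26 replicates 2 and 3. Replicate numbers of the source names were not taken to pair the samples, since correlations of same-numbered deviations ranged from -0.126 to 0.291. The sample titles number adjacent tissue 2 and 3, and by these numbers the correlations with adenoma were 0.0355 and 0.0257, those with small intestine -0.141 and 0.208. This replicate block, chosen after seeing the data, gave 0 of the 9 genes and 0 of all genes in both comparisons with adjacent tissue. With the replicate block, 5 of the 9 genes were called in adenoma against small intestine, 6 in CT26 against colon, where Mthfd1 had an adjusted p of 0.013, 6 in CT26 against adenoma and 5 in the difference of differences, and none in the other comparisons. For the comparisons with calls, in the order given, the main fit called 22.4%, 37.2%, 41.9% and 30.8% of all genes. The shares with the replicate block are not given here. Over all genes, the adenoma against adjacent count of 927 was 82 with the replicate block, 163 with the slide block, 195 with all groups in 1 fit, 54 with no filter and 0 without adenoma replicate 2. Signal over background did not limit the 9 genes, while Aldh1l2, Slc7a11, Amt, Bhmt, Mtrr, Dctd and Cth were at or near background on arrays of some groups. The cause of these dependences was not tested.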
